A study of Rattus norvegicus with 4 samples.

Results

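The genes described here encode the cytosolic factors of translation initiation, elongation and termination. Members were taken by name, as gene symbols that begin with Eif or Eef, without the eIF2 kinases (Eif2ak) and the eIF4E-binding proteins (Eif4ebp), together with Etf1, Gspt1, Abce1 and Dhx29. This rule found 61 of the 22250 genes in the count files, and 59 of these passed the low-count filter and were tested. Gspt1, Eif3e, Eif3i and Eif5 were not analysed here.

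Ribosome footprints came from neonatal rat ventricular cardiomyocytes, a primary culture of heart muscle cells prepared from Wistar rats 1 to 2 days old. In the siCpeb4 group (2 libraries), an siRNA against Cpeb4 was applied for 72 h. The control group (2 libraries) received a control siRNA. The growth protocol of all 4 libraries also mentions Torin1, an inhibitor of the mTOR kinase, at 250 nM for 24 h. It does not say which cells received it, so it is unknown whether either group did. Footprints were recovered from RNase I treated polysome gradient fractions, although the molecule is labelled polyA RNA. The labels do not state whether the replicates of a group are independent cultures. The p-values therefore cover the variation among these libraries alone, and this may be technical. Gene counts summed to 4889212 and 5910911 in the siCpeb4 libraries and to 5863879 and 3554011 in the control libraries. The siRNA target Cpeb4 (ENSRNOG00000033169), a cytoplasmic polyadenylation element binding protein that regulates mRNA tails and translation, had 40 and 59 counts in siCpeb4 libraries, against 351 and 253 in control libraries (log2 fold change -2.86 ± 0.17 SE, edgeR adjusted p = 1.57e-09).

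The culture was checked against markers. Of the 10 cardiomyocyte markers listed, 9 were found, with the lowest at 2069 counts, and their summed level was 56700 and 51700 CPM (counts scaled to each library's total) in siCpeb4 libraries, against 52100 and 56000 CPM in control libraries. The 7 fibroblast markers summed to 9690 and 9150 CPM in siCpeb4 libraries, against 13100 and 12000 CPM in control libraries, which do not overlap. Of these, Col1a1 was called lower and Col1a2 was listed at 0 in all 4 libraries. Col1a1 is the largest part of the sum, with 6071.7 and 5374.3 CPM in siCpeb4 libraries, against 8586.5 and 7866.9 CPM in control libraries. Col3a1 (log2 fold change -0.25) and Pdgfra (-0.32) were also lower without overlap. Postn (-0.25), Dcn (-0.29) and Lum (-0.25) had negative log2 fold changes too, but overlapped between the groups. The 5 smooth muscle and pericyte markers summed to 1450 and 1420 CPM in siCpeb4 libraries, against 1530 and 1480 CPM in control libraries, which do not overlap either, and none was called. Most of this sum is Tagln, with 1125.1 and 1064.0 CPM in siCpeb4 libraries, against 1193.7 and 1176.1 CPM in control libraries. Only Tagln had a negative log2 fold change (-0.14). Those of Myh11 (0.03), Cnn1 (0.06), Pdgfrb (0.02) and Rgs5 (0.71) were positive. The 4 endothelial and 5 leukocyte markers found overlapped between the groups in summed level. Footprints of these bulk libraries come from all cells of the culture, so fewer cells of a type and less RNA per cell cannot be told apart. The part of the fibroblast marker and Tagln differences in the values that follow was not tested.

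Translation begins when initiation factors bring the initiator tRNA and the small ribosomal subunit to the cap of an mRNA and scan to a start codon. Elongation factors then deliver aminoacyl-tRNAs and move the ribosome along, and release and recycling factors end the cycle. Many of these mRNAs, above all those of the elongation factors, are known in human cells to carry a terminal oligopyrimidine tract (TOP) at their 5′ end, a run of C and T letters through which mTOR controls their translation. Heart muscle differs from most tissues in that the elongation factor eEF1A2 largely takes the place of eEF1A1 in mature muscle fibres.

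Among the translation factors, only Dhx29 passed the test for a footprint difference between the groups, and it was lower. Of the 59 factors tested, 1 fell and 0 rose (edgeR, adjusted p under 0.05), which is 1.69% of them. Over all 11335 genes tested, 3.41% were called, 1.87% lower and 1.54% higher, so the members' share is not above this background. At an unadjusted edgeR p under 0.05 stood 7 of 59 factors (11.9%), against 16.1% of all genes. The median log2 fold change was -0.05 over the factors and -0.0031 over all genes tested. Values were negative for 38 of 59 factors (64.4%) and for 50.5% of all genes. The CPM values of the groups did not overlap for 11 factors that were lower (18.6%) and 10 that were higher (16.9%) after Cpeb4 siRNA. Over all genes these shares were 19.5% and 26.5%.

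**Figure D1:**
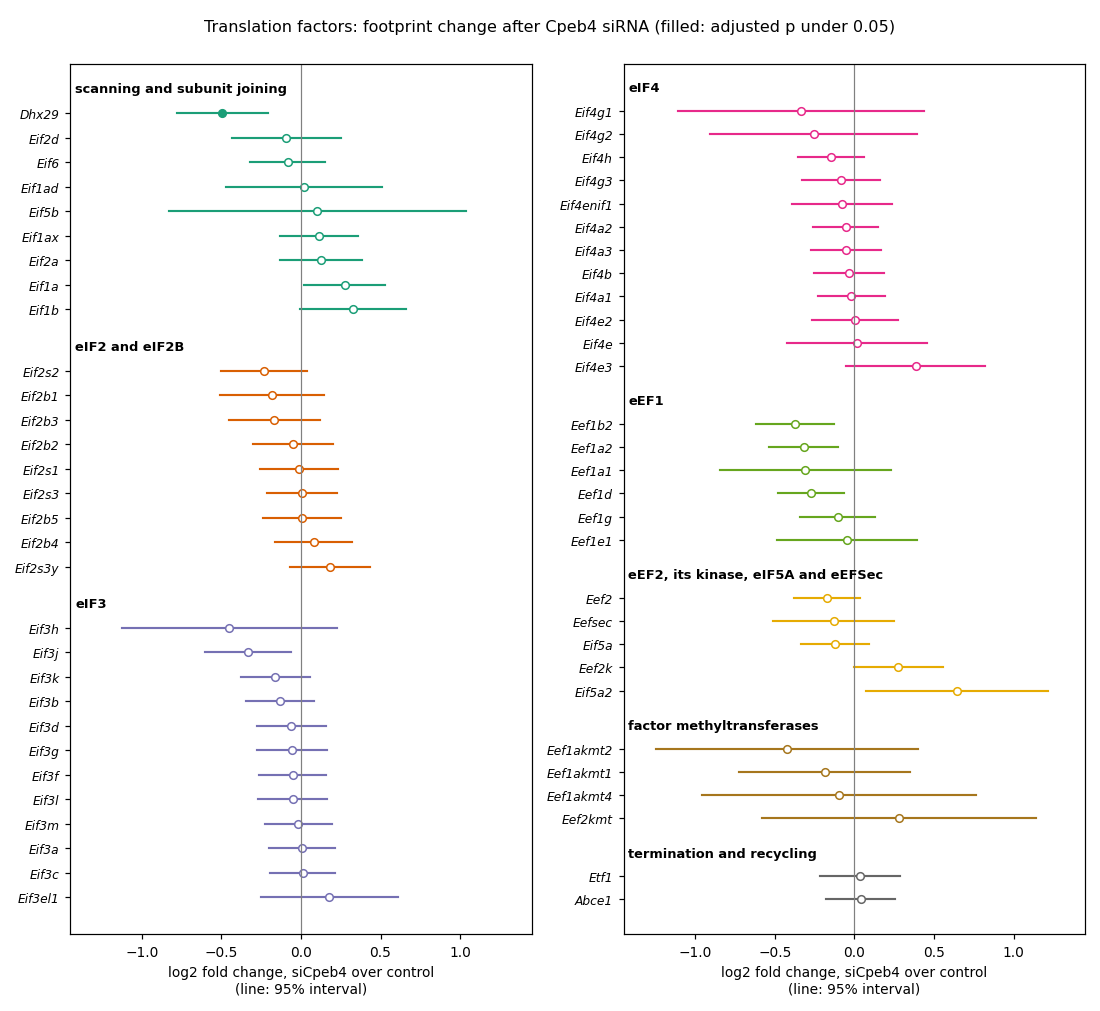
Log2 fold change of footprints, siCpeb4 over control (x axis), for the 59 translation factors tested, arranged by complex, with 95% intervals as lines (2 libraries per group). Filled points mark an adjusted p under 0.05, which Dhx29 alone reaches, and all 6 eEF1 members lie left of 0. The lines of Eef1a1, Eef1g and Eef1e1 cross 0.

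How far a difference could go unseen depends on depth. The 95% interval of the log2 fold change lay wholly within ±0.5 for 36 of the 59 factors and within ±0.3 for 17. These intervals rest on the spread of 2 libraries per group, pooled over genes. Of the tested factors, 15 had fewer than 100 counts on average over the libraries, and their intervals are wide. Low counts were also found for factors that every cell needs. Eif4g1, the scaffold of the cap-binding complex, had 15 and 24 counts in siCpeb4 libraries, against 26 and 16 in control libraries. Eif5b, the GTPase that joins the ribosomal subunits, had 11 and 21 counts in siCpeb4 libraries, against 13 and 12 in control libraries. Eif1, which guards start codon choice, had 1 and 1 counts in siCpeb4 libraries, against 3 and 0 in control libraries, and was not tested. The files hold uniquely mapped reads, per their names, so genes with near-identical copies are uncertain. The RefSeq table lists copies named after Eef1a1, Eif4a1, Eif5b and Eif1.

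The scanning and subunit-joining factors held the called gene. DHX29 is an RNA helicase that helps the scanning ribosome through structured leader sequences. Dhx29 (ENSRNOG00000010369) had 189 and 289 counts in siCpeb4 libraries, or 38.7 and 48.9 CPM, against 345 and 223 counts, or 58.8 and 62.7 CPM, in control libraries. Both siCpeb4 libraries lie below both controls, and the siCpeb4 libraries stand farther apart than the controls do. Its level was 43.8 ± 7.24 CPM in siCpeb4 and 60.8 ± 2.77 CPM in control cells (SD, n = 2 each), and it fell (log2 fold change -0.49 ± 0.14 SE, edgeR adjusted p = 0.0497). This call sits at the threshold and ended without siCpeb4 replicate 1 (edgeR adjusted p = 0.223), control replicate 1 (0.115) or control replicate 2 (0.221). It also ended with crossed replicate numbers as a block, in DESeq2 (adjusted p = 0.201), with library totals as the only scaling (edgeR adjusted p = 0.0865) and with a filter of at least 30 counts in 2 libraries (0.0524).

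Other members of this set were not called, and 6 of the 9 tested were positive, with a median log2 fold change of 0.10. Eif1a, a form of the factor eIF1A that supports scanning, had 74.5 and 70.2 CPM in siCpeb4 libraries, against 60.2 and 56.6 CPM in control libraries. The groups do not overlap, and the log2 fold change was 0.28 ± 0.12 SE (edgeR adjusted p = 0.264). Its X-linked relative Eif1ax had a log2 fold change of 0.11 ± 0.12 SE, and Eif1b, a relative of the start codon factor eIF1, one of 0.33 ± 0.16 SE. Eif6 keeps the large ribosomal subunit from joining too early. It had 119.2 and 107.3 CPM in siCpeb4 libraries, against 119.4 and 115.4 CPM in control libraries, which overlap. Eif2a (0.13 ± 0.12) and Eif2d (-0.09 ± 0.16), factors of alternative initiation, and Eif1ad (0.02 ± 0.24) completed the set, as log2 fold changes with SE.

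The eIF2 complex carries the initiator tRNA, and eIF2B recharges it with GTP, a step that stress kinases block. None of the 9 members was called, and 0 of 9 had an unadjusted edgeR p under 0.05. No other tool called any of them. Their median log2 fold change was -0.01. Eif2s2, the beta subunit, had 76.7 and 105.9 CPM in siCpeb4 libraries, against 107.3 and 103.0 CPM in control libraries. Only siCpeb4 replicate 1 was low, and the log2 fold change was -0.23 ± 0.13 SE (edgeR adjusted p = 0.412). The alpha subunit Eif2s1, the site of stress phosphorylation, had 85.7 and 99.3 CPM in siCpeb4 libraries, against 94.6 and 87.8 CPM in control libraries, and these overlap.

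The gamma subunit has X-linked and Y-linked genes. Eif2s3 (X) had 165.3 and 175.6 CPM in siCpeb4 libraries, against 164.6 and 168.5 CPM in control libraries. The 95% interval of its log2 fold change was -0.21 to 0.22. Eif2s3y (Y) had 74.5 and 87.0 CPM in siCpeb4 libraries, against 70.9 and 68.7 CPM in control libraries. These do not overlap, but the log2 fold change of 0.18 ± 0.12 SE was not called (edgeR adjusted p = 0.507). The copies are similar in sequence, so the division of reads between them is uncertain. The eIF2B subunits had log2 fold changes from -0.18 for Eif2b1 to 0.08 for Eif2b4, with Eif2b3 at -0.17, Eif2b2 at -0.05 and Eif2b5 at 0.0077. SE ranged over these from 0.12 to 0.16.

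eIF3 is the largest initiation complex and holds the small subunit in a form ready for mRNA. None of its 12 members was called (edgeR, with 1 at an unadjusted p under 0.05, and none called in DESeq2), and their median log2 fold change was -0.05. Together the eIF3 genes took 0.284% and 0.297% of the counts in siCpeb4 libraries, against 0.292% and 0.295% in control libraries. The core subunits were measured most tightly. Eif3c had 660.4 and 712.8 CPM in siCpeb4 libraries, against 665.4 and 669.7 CPM in control libraries, with a 95% interval of -0.19 to 0.21 for the log2 fold change. Eif3a, the scaffold, had an interval of -0.20 to 0.21. Eif3b, Eif3d, Eif3f, Eif3g, Eif3l and Eif3m had log2 fold changes of -0.13, -0.06, -0.05, -0.06, -0.05 and -0.02, each with an SE of 0.10 or 0.11.

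The loosely bound subunit Eif3j, which leaves the complex during initiation, was the member of eIF3 with the smallest p. It had 57.3 and 66.5 CPM in siCpeb4 libraries, against 84.1 and 68.1 CPM in control libraries. The groups are separate only by a narrow margin, and the log2 fold change was -0.34 ± 0.13 SE (edgeR adjusted p = 0.186). Eif3k, a peripheral subunit, had 178.4 and 171.6 CPM in siCpeb4 libraries, against 197.0 and 185.7 CPM in control libraries (log2 fold change -0.16 ± 0.11 SE, edgeR adjusted p = 0.493). Eif3h had only 39 and 26 counts in siCpeb4 libraries, against 55 and 23 in control libraries. Eif3el1, which is named after the subunit eIF3e, had 78 and 120 counts in siCpeb4 libraries, against 100 and 50 in control libraries. Both overlap between the groups.

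The eIF4 factors bind the cap and unwind the leader. None of the 12 was called, and 0 of 12 had an unadjusted edgeR p under 0.05. DESeq2 called none either. The helicase Eif4a1 had 274.1 and 293.5 CPM in siCpeb4 libraries, against 289.6 and 273.5 CPM in control libraries. Its paralogue Eif4a2 had 389.4 and 373.7 CPM in siCpeb4 libraries, against 389.5 and 386.9 CPM in control libraries. Both 95% intervals lay within ±0.3 on the log2 scale. The helicase cofactor Eif4h had 339.3 and 330.6 CPM in siCpeb4 libraries, against 367.0 and 360.4 CPM in control libraries, which do not overlap (log2 fold change -0.15 ± 0.10 SE, edgeR adjusted p = 0.501). The other cofactor, Eif4b, had a log2 fold change of -0.03 ± 0.11 SE.

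Among the cap-binding proteins, Eif4e3, a variant form, had 22.5 and 17.8 CPM in siCpeb4 libraries, against 13.6 and 16.9 CPM in control libraries. Its log2 fold change of 0.38 ± 0.21 SE was not called (edgeR adjusted p = 0.392). Eif4e itself had 76 and 91 counts in siCpeb4 libraries, against 82 and 58 in control libraries, and Eif4e2 had a log2 fold change of 0.0032 ± 0.13 SE. The scaffold Eif4g3 stood at -0.09 ± 0.12 SE and Eif4g2, which acts in cap-independent initiation, at -0.26 ± 0.31 SE. Eif4a3, a helicase of the exon junction complex despite its name, had -0.05 ± 0.11 SE, and Eif4enif1, the transporter of eIF4E, had -0.08 ± 0.15 SE.

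Footprints on the elongation factor eEF1 had negative log2 fold changes in every member, and none passed the test. eEF1A carries aminoacyl-tRNA to the ribosome, and the subunits eEF1B alpha, delta and gamma (Eef1b2, Eef1d, Eef1g) recharge it. None of the 6 members was called (DESeq2 also called none), 6 of 6 were negative, the median log2 fold change was -0.29, and 3 of 6 had an unadjusted edgeR p under 0.05. Over all genes the median was -0.0031, and 16.1% had such a p. Of the 6, Eef1a1 (-0.31 ± 0.26 SE) and Eef1e1 (-0.05 ± 0.21 SE) did not keep a negative value throughout. Eef1a1 stood at 0.15 without control replicate 2, and Eef1e1 at 0.034 without siCpeb4 replicate 1. The eEF1 genes together took 0.127% and 0.117% of the counts in siCpeb4 libraries, against 0.148% and 0.147% in control libraries. No test was made of this sum.

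Eef1b2 had 135.0 and 156.8 CPM in siCpeb4 libraries, against 168.7 and 203.7 CPM in control libraries. The groups do not overlap, and each spreads by more than their nearest gap. Its log2 fold change was -0.38 ± 0.12 SE (95% interval -0.62 to -0.13, edgeR adjusted p = 0.0878). Eef1a2, the muscle and neuron form, had 720.8 and 613.4 CPM in siCpeb4 libraries, against 834.4 and 796.9 CPM in control libraries (log2 fold change -0.32 ± 0.11 SE, edgeR adjusted p = 0.105). Eef1d had 287.2 and 269.7 CPM in siCpeb4 libraries, against 335.3 and 323.6 CPM in control libraries (log2 fold change -0.27 ± 0.10 SE, edgeR adjusted p = 0.164). In Eef1a2 and Eef1d as well, both siCpeb4 libraries lay below both controls. These calls were sensitive to the setting. Eef1b2 passed without control replicate 1 (edgeR adjusted p = 0.0499) and Eef1a2 without siCpeb4 replicate 1 (0.0323), and both passed with no low-count filter (0.0356 for Eef1b2 and 0.0386 for Eef1a2). Eef1a2 also passed with crossed replicate numbers as a block.

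**Figure D2:**
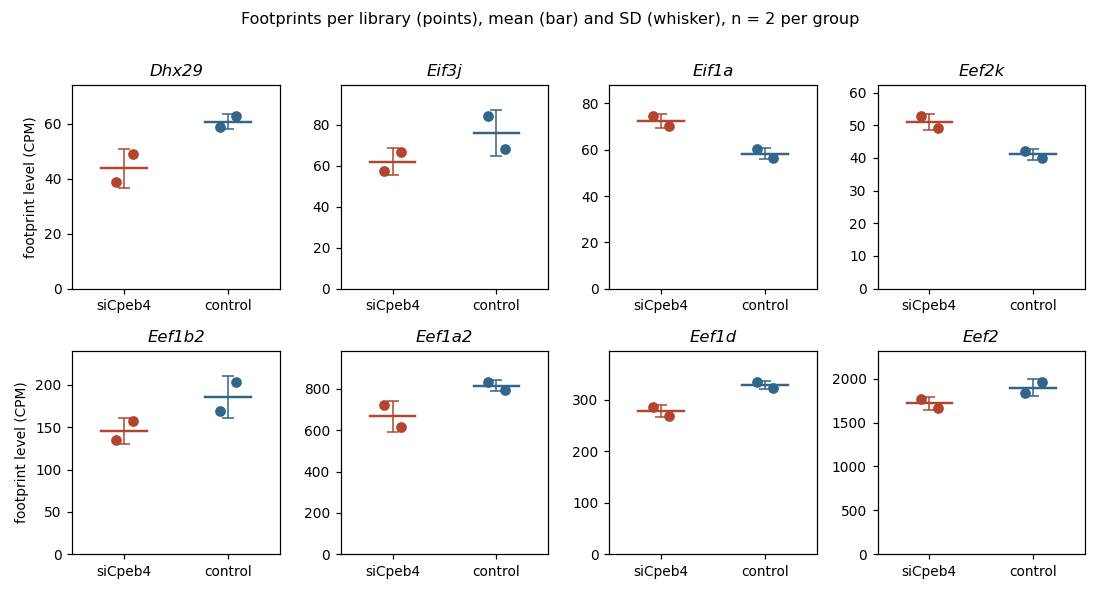
Footprint level in CPM (y axis, from 0) for 8 translation factors in each siCpeb4 and control library, with the mean and SD of 2 libraries. In all 8 genes the groups do not overlap, lower in siCpeb4 for Dhx29, Eif3j, Eef1b2, Eef1a2, Eef1d and Eef2 and higher for Eif1a and Eef2k, and only Dhx29 passed the test. These genes are a selection. Among the 59 factors tested, the groups do not overlap for 18.6% (lower) and 16.9% (higher), against 19.5% and 26.5% of all genes tested.

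The remaining eEF1 members overlapped between the groups. Eef1g had 103.1 and 100.2 CPM in siCpeb4 libraries, against 110.9 and 103.0 CPM in control libraries, with siCpeb4 replicate 1 just above control replicate 2 (log2 fold change -0.11 ± 0.11 SE). Eef1a1, whose count is uncertain because of copies in the annotation, had 57 and 98 counts in siCpeb4 libraries, against 74 and 83 in control libraries. Eef1e1, an accessory of the tRNA synthetase complex and not a true elongation factor, had a log2 fold change of -0.05 ± 0.21 SE.

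Because the eEF1 values lay on one side of 0 and such mRNAs are known for a pyrimidine start, the annotated transcript starts of this set, of Eef2 and of Dhx29 are shown. Each line gives 30 bases of the RefSeq annotation (build GRCr8), 10 before the start and 20 from it, 5′ to 3′ on the gene's strand, with the longest run of C and T in capitals. Eef1d is named only.
Eef1b2 (chr9:72074081-72074110, plus strand): ggccggtcccggCCCTTTTTCTCCCTCagc
Eef1a1 (chr8:88225050-88225079, minus strand): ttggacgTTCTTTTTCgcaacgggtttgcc
Eef1a2 (chr3:188652614-188652643, minus strand): gggtacatctctgcagctgcgTCCTCTCgg
Eef1e1 (chr17:26354237-26354266, plus strand): tccgCCCCCCTaggagctgggccagaagat
Eef1g (chr1:215289805-215289834, plus strand): CTgcggaatcaccatggcggctggggtaag
Eef2 (chr7:9189219-9189248, minus strand): ccgcagccgccgccatcgtcggcgcgCTTC
Dhx29 (chr2:46293891-46293920, plus strand): tggagCCCggatggaggaggctgggtggag

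The runs were 15 bases in Eef1b2 and 9 in Eef1a1, 7 in Eef1a2 and Eef1e1, 4 in Eef2, 3 in Dhx29 and 2 in Eef1g. Those of Eef2 and Eef1g touch the edge of the window and may be longer. That of Eef1e1 lies mostly before the annotated start. A run of 8 or more on the printed strand was present in 9 of the 55 factors with an annotated start (16.4%) and in 10.8% of all 33469 starts in the table. This count takes runs anywhere in the window, also those before the annotated start, as in Eef1akmt2. Besides Eef1b2 and Eef1a1, it covers Eif2s3 (16 bases, log2 fold change 0.0046), Eif3f (14, -0.05), Eef1akmt1 (12, -0.19) and Eif2a (11, 0.13). It also covers Eif3m (10, -0.02), Eif4h (9, -0.15) and Eef1akmt2 (8, -0.42). Whether run length goes with the footprint difference was not tested. A stricter form, a C exactly at the annotated start followed by at least 4 letters that are C or T, was found in 1 factor, Eif2a (1.82%), and in 2.63% of all starts. Annotated starts can be displaced by some bases, and a missing match says only that these letters are not in this window. The factors established as TOP mRNAs in human cells did not pass as single genes. Of the 9 listed, 8 were tested, and none was called (edgeR, with 2 at an unadjusted p under 0.05, which is 25.0% against 16.1% of all genes tested, and none in DESeq2). Their log2 fold changes were all negative (8 of 8, against 50.5% of all genes), with a median of -0.22. Of these, 4 (Eef1a1, Eef1b2, Eef1d and Eef1g) are eEF1 members already described. The list was chosen with earlier results of these data known, and the groups overlap for 5 of the 8. The other 3 (Eef1b2, Eef1d and Eef2) were lower without overlap, which is 37.5%, against 19.5% of all genes tested. The lowest value, Eif3h at -0.45 ± 0.33 SE, rests on 23 to 55 counts per library. Without control replicate 2, Eef1a1 stood at 0.15 and Eif4b at 0.026. The other members stayed negative whichever library was left out. The 51 other factors tested had a median of -0.05, with 30 negative.

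**Figure D3:**
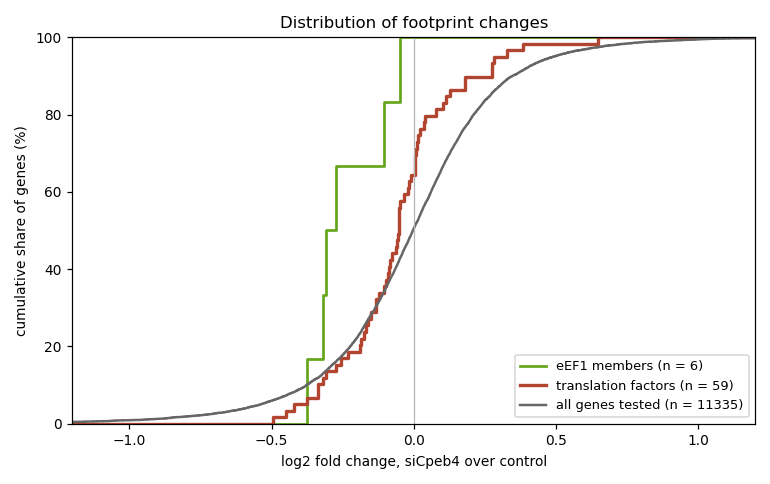
Cumulative share of genes (y axis, %) against the log2 fold change, siCpeb4 over control (x axis), for the 6 eEF1 members, the 59 translation factors and all 11335 genes tested. The eEF1 line reaches 100% left of 0, while the translation factors have a median of -0.05 and all genes one of -0.0031. Eef1a1 and Eef1e1, which are in the eEF1 line, changed sign with a library left out.

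eEF2 moves the ribosome by 1 codon, and its kinase eEF2K switches it off by phosphorylation. Eef2 had 8661 and 9836 counts in siCpeb4 libraries, or 1772 and 1664 CPM, against 10743 and 6981 counts, or 1832 and 1964 CPM, in control libraries. Both siCpeb4 libraries were lower, and the log2 fold change of -0.17 ± 0.10 SE was not called (edgeR adjusted p = 0.421). Eef2k had 52.8 and 49.2 CPM in siCpeb4 libraries, against 42.3 and 40.0 CPM in control libraries. Here both siCpeb4 libraries were higher, and the log2 fold change of 0.28 ± 0.13 SE was not called either (edgeR adjusted p = 0.319).

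eIF5A, named as an initiation factor, eases elongation and termination at difficult peptide bonds. Eif5a had 320.9 and 347.7 CPM in siCpeb4 libraries, against 338.9 and 375.4 CPM in control libraries, which overlap. Its paralogue Eif5a2 had 46 and 69 counts in siCpeb4 libraries, against 36 and 26 in control libraries. That log2 fold change, 0.65 ± 0.28 SE, was the most positive among the factors in this fit, and it was not called (95% interval 0.07 to 1.22, edgeR adjusted p = 0.239). Eefsec, which delivers selenocysteine, had a log2 fold change of -0.13 ± 0.18 SE.

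Methyltransferases that modify eEF1A or eEF2 had few footprints. Eef1akmt1 had 41 and 56 counts in siCpeb4 libraries, against 63 and 32 in control libraries, and Eef1akmt2 had 13 and 24 in siCpeb4 libraries, against 32 and 11 in control libraries. Eef2kmt and Eef1akmt4 had at most 22 counts in any library. Eef1akmt3 had 2 and 0 counts in siCpeb4 libraries, against 1 and 0 in control libraries, and was not tested. None of the 4 tested was called (edgeR, with 0 at an unadjusted p under 0.05, and none in DESeq2). The 95% intervals of the log2 fold change were wide, at -0.72 to 0.35 for Eef1akmt1 and -1.25 to 0.40 for Eef1akmt2.

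Termination and recycling were represented by the release factor eRF1 (Etf1) and by ABCE1, the ATPase that splits ribosomes after termination. Etf1 had 70.0 and 76.5 CPM in siCpeb4 libraries, against 72.0 and 67.8 CPM in control libraries. Abce1 had 194.7 and 212.2 CPM in siCpeb4 libraries, against 196.0 and 192.2 CPM in control libraries. The groups overlap in both genes, and the 95% intervals of the log2 fold change were -0.21 to 0.28 for Etf1 and -0.18 to 0.26 for Abce1.

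Summed over all members, translation factors took 0.937% and 0.935% of the gene counts in siCpeb4 libraries, against 0.978% and 0.990% in control libraries. The difference was -0.0479 percentage points (two-sided exact permutation test over samples, p = 0.333). With 2 libraries against 2, 0.333 is the smallest p this test can give. The shares of eEF1, of the set led by Eef2 and, by a narrow margin, of eIF4 were lower in both siCpeb4 libraries. The Eef2-led set took 0.217% and 0.210% in siCpeb4 libraries, against 0.224% and 0.241% in control libraries. The eIF4 factors took 0.161% and 0.158% in siCpeb4 libraries, against 0.164% and 0.162% in control libraries. Such sums weigh each factor by its counts. The largest part of the Eef2-led sum is Eef2, with a mean of 1718 CPM in siCpeb4 and 1898 CPM in control libraries. That of the eEF1 sum is Eef1a2, with 667 and 816 CPM, and neither gene was called. The large eIF3 member Eif3c had 687 and 668 CPM.

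**Figure D4:**
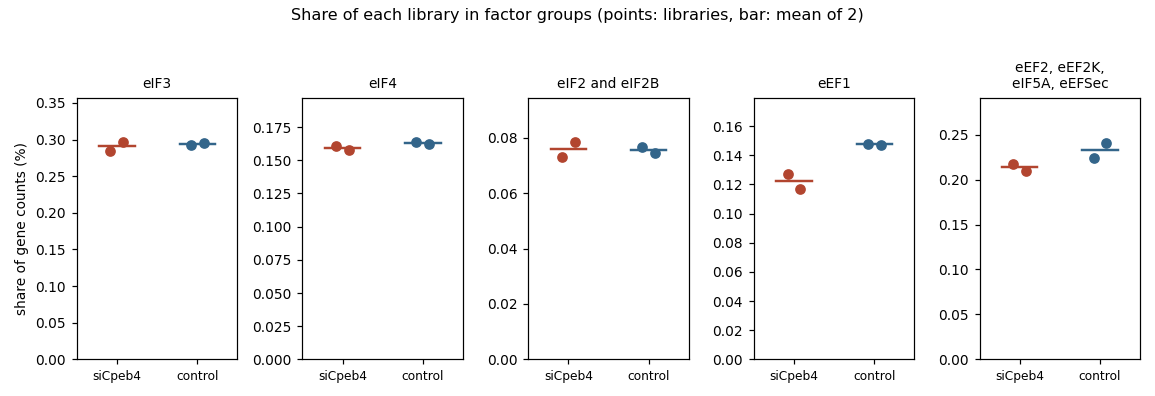
Share of gene counts (y axis, %, each panel on its own scale from 0) in 5 factor sets for each siCpeb4 and control library, with the mean of 2 libraries as a horizontal line. The eEF1 libraries are separate, at 0.127% and 0.117% in siCpeb4 and 0.148% and 0.147% in control, whereas those of eIF3 overlap.

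Regulators and partners outside the naming rule were described beside the factors. Of 32 listed genes, 31 were tested, 1 rose and 0 fell (edgeR), with a median log2 fold change of 0.02. The share called, 3.23%, is close to the 3.41% of all genes tested. The gene that rose was Gfm1, the mitochondrial counterpart of eEF2. It had 199.6 and 202.3 CPM in siCpeb4 libraries, against 140.0 and 146.3 CPM in control libraries (log2 fold change 0.46 ± 0.11 SE, edgeR adjusted p = 0.0149). That call ended without control replicate 1 (edgeR adjusted p = 0.221) or control replicate 2 (0.0704). The eIF4E-binding protein Eif4ebp1, which when mTOR is inactive binds eIF4E and keeps eIF4G from joining it, had 73.8 and 74.1 CPM in siCpeb4 libraries, against 88.3 and 75.4 CPM in control libraries, and was not called (log2 fold change -0.18 ± 0.12 SE). Eif2ak2, the double-stranded RNA kinase PKR that phosphorylates eIF2 alpha, had 106.8 and 129.1 CPM in siCpeb4 libraries, against 95.5 and 82.2 CPM in control libraries (log2 fold change 0.37 ± 0.12 SE, edgeR adjusted p = 0.102).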

How the data were processed

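Ribosome footprints were measured in 4 libraries, 2 per group. The values are raw, whole-number footprint counts for each Ensembl gene, as deposited. The submitters' processing notes name HTSeq 0.12, STAR 2.7, Bowtie2 and assembly Rnor_6.0. Their roles and the strand setting are not given in the sources used here. Per the file names, reads were uniquely mapped and 29 to 34 nt long (29 to 33 nt in siCpeb4 replicate 2). The 5 HTSeq summary rows, with 4.42% to 4.63% of reads in no feature, were left out. Members, lists, the rule for named genes and the tests were chosen with earlier results of these data known. The rule took most factors whatever their values, called members, and the 2 smallest p of each complex. Eif1b, Eif1ad, Eif3el1, Eef1e1, Eef2kmt, Eef1akmt3, Eef1akmt4 and the named pathway genes lie outside it and were chosen after their values were seen. Levels are CPM on library totals. Tests used edgeR 4.0.16 in R 4.3.3 (quasi-likelihood F-test, TMM, filterByExpr with minimum count 10, group only, two-sided, Benjamini-Hochberg over 11335 genes). SE came from F, and intervals from a t distribution. DESeq2 1.42.0, other scalings and filters, a replicate block and omission of each library were alternatives. The workflow was also run on simulated counts with independent replicates, so that run does not cover a shared culture or other dependence among libraries. Within groups, replicates differed by more than sampling noise (chi-square per degree of freedom 5.12 in siCpeb4 and 2.91 in control). Footprint density by coding length was planned and not computed, since no coding lengths were at hand, so levels of different genes are not compared. No RNA-seq was used, so a change in mRNA and one in ribosome loading cannot be told apart.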

Additional observations from a re-analysis of the deposited data

How the results depend on the processing

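Over all genes, 386 were called in the analysis as reported, 192 in DESeq2, 606 with no low-count filter and 212 to 318 with 1 library left out. Of the translation factors, 1 was called as reported and 3 with no low-count filter (Dhx29, Eef1a2 and Eef1b2). The count was 0 with library totals only (edgeR, 9 at an unadjusted p under 0.05), 0 in DESeq2 (4 at an unadjusted p under 0.05), 0 with at least 30 counts in 2 libraries (edgeR, 7 at an unadjusted p under 0.05) and 0 to 1 with a library left out. The cause was not tested. The called member was Eef1a2 without siCpeb4 replicate 1, Eef1b2 without control replicate 1 and Dhx29 without siCpeb4 replicate 2, and none without control replicate 2 (edgeR, 5 at an unadjusted p under 0.05). With the replicate number as a block, 403 genes and 1 factor (Dhx29, edgeR adjusted p = 0.0263) were called. Deviations of same-numbered libraries correlated at -0.115, so crossed numbers were added as a block after seeing the data, with 481 genes and 1 factor called, which was Eef1a2 and not Dhx29. Library totals as the only scaling moved the median of all genes to 0.0264.

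The median over the factors was -0.0225 with library totals, and that of eIF3 was -0.025, of eIF4 -0.0235 and of eEF1 -0.26. The median of the scanning set was 0.0488 in DESeq2, 0.0613 with no filter, 0.0675 with the stricter filter and 0.0442 with the replicate block. With a library left out, medians ranged from 0.066 to 0.154 for the scanning set, -0.0828 to -0.0195 for eIF3, -0.0918 to -0.0167 for eIF4, -0.275 to -0.186 for eEF1, -0.273 to 0.024 for the methyltransferases and -0.164 to 0.027 for the set led by Eef2. Without siCpeb4 replicate 2 the methyltransferase median was below that of eEF1 (-0.204). The Cpeb4 call was the same in all 10 alternatives run on it. The share of counts in factors was rerun only with a library left out. Both siCpeb4 shares lay below both controls, so its direction could not change there.

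The sign of uncalled factors near 0 changed under some settings. With library totals the log2 fold change was 0.019 for Eif2s1, 0.0138 for Eif3m and 0.0109 for Eif4a1. Eif4e2 stood at -0.0022 in DESeq2 and at -0.0017 with the replicate block. With a library left out, log2 fold changes ranged from -0.17 to 0.006 for Eif6, -0.26 to 0.39 for Eif5b, -0.23 to 0.26 for Eif1ad, -0.34 to 0.043 for Eif2b1, -0.0088 to 0.17 for Eif2b4, -0.099 to 0.0013 for Eif2b2, -0.11 to 0.080 for Eif2s1, -0.066 to 0.077 for Eif2b5 and -0.026 to 0.038 for Eif2s3. They ranged from -0.16 to 0.043 for Eif3d, -0.041 to 0.0123 for Eif3m, -0.031 to 0.055 for Eif3c, -0.069 to 0.080 for Eif3a, -0.17 to 0.0001 for Eif4g3, -0.12 to 0.019 for Eif4a3, -0.094 to 0.026 for Eif4b, -0.056 to 0.020 for Eif4a1, -0.12 to 0.13 for Eif4e and -0.089 to 0.085 for Eif4e2. Ranges were -0.75 to 0.15 for Eef1a1, -0.14 to 0.034 for Eef1e1, -0.32 to 0.027 for Eefsec, -0.76 to 0.096 for Eef1akmt2, -0.28 to 0.045 for Eef1akmt4, -0.011 to 0.089 for Abce1 and -0.018 to 0.087 for Etf1. Omitting a library leaves 1 in that group, whose variation is then taken from the group that keeps 2.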
